A study of Homo sapiens with 10 samples.

Results

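The genes described here are 9 members of the Notch signalling pathway: the receptors NOTCH1, NOTCH2 and NOTCH3, the ligands JAG1, JAG2 and DLL1, the target genes HES1 and HEY1, and the receptor modifier LFNG. They were chosen by name, with earlier results of these data known. Each has 1 entry of the 23170 gene entries in every table, and together they have 15 of the 37557 isoform entries. RNA-seq was run on 10 samples of PC3, a human cell line from a prostate cancer metastasis, in 4 groups. PC3-Epi (2 samples, treatment "Control (Epithelial)") was grown from luciferase-transduced PC3 colonies picked for light output and epithelial shape. PC3-EMT14 (3 samples) is a mesenchymal population isolated after PC3-Epi had been co-cultured with human macrophages. Lentiviral transduction of that population with OVOL1 gave PC3-EMT14-OVOL1 (3 samples, called the OVOL1 line below), and transduction with OVOL2 gave PC3-EMT14-OVOL2 (2 samples, the OVOL2 line). Both genes encode zinc-finger transcription factors of epithelia. All 4 groups therefore descend from the luciferase-carrying PC3-Epi cells. The labels name PC3-EMT14 itself, and no vector control, as the group beside the transduced lines.

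Notch receptors are single-pass membrane proteins that are activated by Jagged or Delta ligands on a neighbouring cell. Proteolytic cleavage then frees the intracellular domain, which enters the nucleus, joins the DNA-binding protein RBPJ and activates genes such as those of the HES and HEY families of transcriptional repressors. In epithelia the pathway takes part in cell fate choices, and in carcinomas it has been tied to epithelial-to-mesenchymal transition (EMT), the change of epithelial cells into motile mesenchymal ones, whose reverse is called MET.

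Each line has 1 value per gene and table, the authors' FPKM (fragments scaled to transcript length and to library size), which pools the samples of a group. The values therefore carry no SD, and whether a fold change exceeded the spread between samples was not tested here. A gene was counted as past 2-fold only when the higher of both lines reached 1 FPKM. FPKM is scaled to transcript length, so levels may be set side by side between genes. The tables give the lines short internal names, with PC3-Epi as pc3, which were matched to the labels by the pair of lines each table is named for, and the lines were then checked against marker genes. These markers set PC3-Epi and, to a lesser degree, the transduced lines apart from PC3-EMT14 but do not tell PC3-Epi from the parental PC3 line. CDH1, which encodes E-cadherin, stood at 0.971 to 1.00 FPKM in PC3-EMT14, 16.2 in PC3-EMT14-OVOL1, 39.2 in PC3-EMT14-OVOL2 and 50.6 in PC3-Epi. The other epithelial markers EPCAM, KRT8 and KRT18 were lowest in PC3-EMT14 and highest in PC3-Epi, and VIM and ZEB1, markers of mesenchymal cells, ran the opposite way, with ZEB1 at 7.36 to 7.59 FPKM in PC3-EMT14 and 0.130 in PC3-Epi. In the OVOL1 line CDH1 and EPCAM were past 2-fold higher, whereas KRT8, KRT18, VIM and ZEB1 stayed under 2-fold. VIM there was at 183 FPKM, against 262 to 271 in PC3-EMT14 and 42.5 in PC3-Epi, and ZEB1 was at 4.25. OVOL1 was at 11.3 FPKM in its own line and 4.25 in PC3-Epi, whereas OVOL2 was at 831 in its own line and 9.91 in PC3-Epi, so OVOL2 mRNA in the transduced line was far above the epithelial level. Of 14 macrophage markers, 13 had a single entry; 0 of them reached 1 FPKM in any line, 4 or 5 per line were listed at 0, with C1QA, C1QB and C1QC at 0 in every line, and their summed level was 0.329 to 0.573 FPKM.

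Sequence upstream of 7 of the 9 genes was taken from RefSeq (GRCh38.p14), as the 250 bases before each annotated start, with LFNG represented by 2 starts. HEY1 and DLL1 were not among them. The windows of 3 genes are printed because these genes are the clearest cases below: NOTCH3 and JAG2, which were higher in every line than in PC3-EMT14, and HES1, the textbook RBPJ target. They are given 5′ to 3′ on the strand of the gene. Capitals mark TGGGAA, the core of the RBPJ motif, or CAGGTG, an E-box of the type bound by ZEB1, both of which were searched on both strands.
HES1, chr3:194135898-194136147, plus strand: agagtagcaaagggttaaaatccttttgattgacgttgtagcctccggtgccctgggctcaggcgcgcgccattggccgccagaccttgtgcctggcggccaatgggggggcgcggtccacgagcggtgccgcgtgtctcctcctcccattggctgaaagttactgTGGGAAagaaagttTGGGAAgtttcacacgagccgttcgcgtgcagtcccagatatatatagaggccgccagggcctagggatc
JAG2, chr14:105168777-105169026, minus strand: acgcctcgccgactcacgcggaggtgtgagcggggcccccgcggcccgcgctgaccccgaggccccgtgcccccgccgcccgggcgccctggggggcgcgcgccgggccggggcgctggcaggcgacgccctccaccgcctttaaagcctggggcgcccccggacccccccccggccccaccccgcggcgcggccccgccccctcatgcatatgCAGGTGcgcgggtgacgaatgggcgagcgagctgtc
NOTCH3, chr19:15200996-15201245, minus strand: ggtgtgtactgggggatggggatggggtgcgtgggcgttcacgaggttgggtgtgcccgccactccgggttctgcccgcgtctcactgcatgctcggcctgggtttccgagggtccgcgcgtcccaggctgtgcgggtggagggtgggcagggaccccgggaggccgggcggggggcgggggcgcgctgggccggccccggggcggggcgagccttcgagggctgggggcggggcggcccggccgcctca
The HES1 window held TGGGAA in 2 places, beginning 84 and 70 bases before the start. The JAG2 window held CAGGTG once, 36 bases before the start, and the NOTCH3 window held neither. Among the windows not printed, that of the second LFNG start held TGGGAA 248 bases and CAGGTG 212 bases before the start, and the others held neither. No match overlapped another. For scale, TGGGAA occurred in 20.8% and CAGGTG in 17.5% of 35116 such windows over the genome. The OVOL consensus, found in 0.877% of all windows, was in none of the members' windows. These matches are letters in a sequence and were not measured as binding sites.

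The first comparison asked how the Notch genes differ between the epithelial line and the mesenchymal line derived from it. NOTCH3 was 16.2-fold higher in PC3-Epi, JAG2 2.24-fold and LFNG 2.16-fold higher, while HEY1 was 11.8-fold lower. Thus 3 of the 8 members that reached 1 FPKM were past 2-fold higher, where 7.37% of all 12441 genes at that level were, and 1 member was past 2-fold lower, where 8.34% of all genes were. DLL1 did not reach 1 FPKM in any line. The median log2 fold change of the 8 members was 0.42, against -0.01 over all genes, and their median absolute log2 fold change was 0.78 against 0.36. In RNA from bulk cultures, fewer cells that express a gene and less RNA per cell cannot be told apart.

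The next comparisons asked how the OVOL1 and OVOL2 lines differ from PC3-EMT14. With no vector control among the groups, the factor cannot be told apart from transduction and selection. With OVOL1, JAG2 alone was past 2-fold higher (1 of 8 members, against 2.43% of 12197 genes), and 0 of 8 were past 2-fold lower, against 1.54% of all genes. HEY1 fell just short, being 1.95-fold lower, and NOTCH3 was 1.84-fold higher. With OVOL2, NOTCH3 and JAG2 were past 2-fold higher (2 of 8, against 4.42% of 12307 genes) and HEY1 was past 2-fold lower (1 of 8, against 2.93%). LFNG was the nearest to the threshold from below, at 1.70-fold higher. The median log2 fold change of the members was 0.14 with OVOL1 and 0.47 with OVOL2, against -0.00 and -0.04 over all genes. These comparisons and that of PC3-Epi share the same PC3-EMT14 samples, so that their values are set side by side and are not independent of each other.

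**Figure D1:**
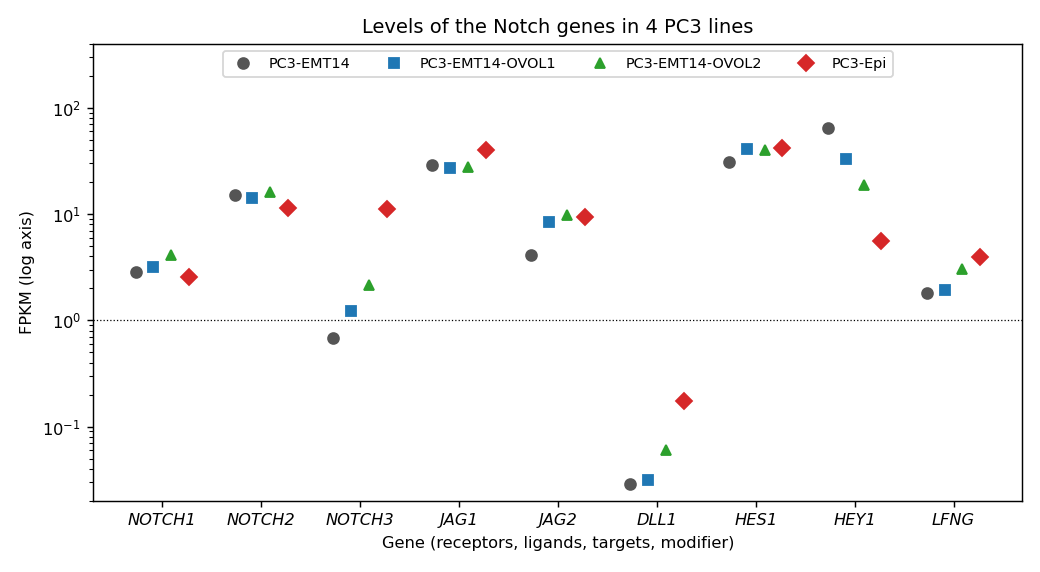
FPKM of the 9 Notch genes on a log axis, 1 point a line (circle PC3-EMT14, square PC3-EMT14-OVOL1, triangle PC3-EMT14-OVOL2, diamond PC3-Epi). A point is the geometric centre of the line's lowest and highest values over its tables, the vertical stroke behind it runs between them, and the dotted line marks 1 FPKM. NOTCH3 is lowest in PC3-EMT14 (0.665 to 0.687 FPKM) and highest in PC3-Epi (11.1), HEY1 is highest in PC3-EMT14 (64.3 to 66.3) and lowest in PC3-Epi (5.64), and HES1 and JAG1 lie nearly level.

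Among the receptors, NOTCH2 was the most abundant in PC3-EMT14, with NOTCH1 next and NOTCH3 last. NOTCH3 (gene entry XLOC_010935, hg19 chr19:15270444-15311792, minus strand), a receptor best known from vascular smooth muscle, was at 0.665 to 0.687 FPKM in PC3-EMT14, 1.22 to 1.24 in PC3-EMT14-OVOL1, 2.17 in PC3-EMT14-OVOL2 and 11.1 in PC3-Epi. Its order was thus PC3-EMT14, OVOL1 line, OVOL2 line and PC3-Epi, each above the one before it. The log2 fold change over PC3-EMT14 was 0.88 in the OVOL1 line, 1.70 in the OVOL2 line and 4.01 in PC3-Epi. A difference at least as large in that direction was seen in 2.78%, 2.32% and 1.33% of all genes in these comparisons. NOTCH3 was therefore far from the epithelial level in both transduced lines, which stood at 1.24 and 2.17 FPKM against 11.1. Since its PC3-EMT14 value lay below 1 FPKM, its fold depends on how low values are treated: with 1 FPKM added to both values the log2 fold change became 0.42, 0.93 and 2.84, and the OVOL2 line was no longer past 2-fold.

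NOTCH1 (XLOC_022042, hg19 chr9:139388896-139440238, minus strand), the receptor with a well-known role in T cell and keratinocyte differentiation, showed smaller differences and no common direction. It stood at 2.82 to 2.91 FPKM in PC3-EMT14, 3.19 to 3.22 in PC3-EMT14-OVOL1, 4.12 in PC3-EMT14-OVOL2 and 2.53 in PC3-Epi. OVOL2 has been described as a repressor of Notch1 in keratinocytes. In these prostate cancer cells the OVOL2 line, with OVOL2 mRNA at 831 FPKM, had the highest NOTCH1 level of the 4 lines. Repression of NOTCH1 was not tested here. The log2 fold change was 0.18 in the OVOL1 line, 0.55 in the OVOL2 line and -0.20 in PC3-Epi, which 22.4%, 8.73% and 35.2% of all genes matched or passed in the same direction.

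NOTCH2 (XLOC_001684, hg19 chr1:120454176-120612317, minus strand), a widely expressed receptor, was at 14.8 to 15.3 FPKM in PC3-EMT14, 14.0 to 14.2 in PC3-EMT14-OVOL1, 16.2 in PC3-EMT14-OVOL2 and 11.3 in PC3-Epi. Its log2 fold change was -0.08, 0.14 and -0.43, so it too stayed under 2-fold everywhere. NOTCH2NL, a partial copy of NOTCH2 whose sequence is nearly identical, had levels of the same size, 17.1 to 17.6 FPKM in PC3-EMT14 and 8.59 in PC3-Epi. Reads that fit both genes could be divided between them by the authors' counting, so the NOTCH2 values are uncertain to that degree.

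The make-up of the receptors differed between the lines more than their sum. The summed FPKM of NOTCH1, NOTCH2 and NOTCH3 was 18.3 to 18.9 in PC3-EMT14 and 24.9 in PC3-Epi. NOTCH2 made up 80.9% of it in PC3-EMT14, 76.1% in the OVOL1 line, 72.1% in the OVOL2 line and 45.4% in PC3-Epi. NOTCH3 made up 3.64%, 6.64%, 9.62% and 44.5%. In PC3-EMT14, NOTCH2 was thus 22.2 times as abundant as NOTCH3 per unit length, whereas in PC3-Epi the ratio was 1.02. Both the shares and the ratios rest on NOTCH2 values that are uncertain where reads also fit NOTCH2NL.

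JAG2 (XLOC_006635, hg19 chr14:105608076-105635161, minus strand), a ligand of the Jagged type, was the one member past 2-fold in the same direction in all 3 comparisons with PC3-EMT14. It was at 4.03 to 4.17 FPKM in PC3-EMT14, 8.41 to 8.50 in PC3-EMT14-OVOL1, 9.81 in PC3-EMT14-OVOL2 and 9.32 in PC3-Epi. In contrast to NOTCH3, the transduced lines stood close to PC3-Epi, with the OVOL2 line slightly above it. The log2 fold change was 1.06, 1.28 and 1.16, and 2.30%, 3.23% and 5.84% of all genes were higher by at least as much. With 1 FPKM added to both values these became 0.90, 1.10 and 1.00, and only the OVOL2 line remained past 2-fold.

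JAG1 (XLOC_013180, hg19 chr20:10618332-10654694, minus strand), the other Jagged ligand and the most abundant of the 3 ligands in every line, was at 28.6 to 29.5 FPKM in PC3-EMT14, 26.9 to 27.2 in PC3-EMT14-OVOL1, 27.8 in PC3-EMT14-OVOL2 and 40.2 in PC3-Epi. Its log2 fold change was -0.08 in the OVOL1 line, -0.04 in the OVOL2 line and 0.45 in PC3-Epi. After centring on the median of all genes the OVOL2 value was 0.00, so that no direction can be given for it. JAG1 exceeded JAG2 by a factor of 7.08 in PC3-EMT14, 3.20 to 3.21 in the OVOL1 line, 2.84 in the OVOL2 line and 4.31 in PC3-Epi.

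DLL1 (XLOC_018227, hg19 chr6:170591294-170599697, minus strand), a Delta-type ligand, was near the lower end of the tables. It was listed at 0.0286 to 0.0295 FPKM in PC3-EMT14, 0.0314 to 0.0318 in PC3-EMT14-OVOL1, 0.0603 in PC3-EMT14-OVOL2 and 0.174 in PC3-Epi. PC3-Epi had the highest value, but the depth behind such values is unknown and no fold was counted for them.

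LFNG (XLOC_019371, hg19 chr7:2552163-2568810, plus strand) encodes lunatic fringe, a glycosyltransferase that adds sugar to Notch receptors and so shifts their response between Delta and Jagged ligands. It was at 1.78 to 1.84 FPKM in PC3-EMT14, 1.92 to 1.94 in PC3-EMT14-OVOL1, 3.02 in PC3-EMT14-OVOL2 and 3.97 in PC3-Epi. The OVOL1 line was close to PC3-EMT14 and the OVOL2 line lay between it and PC3-Epi. Accordingly the log2 fold change was 0.11, 0.76 and 1.11, with 31.0%, 6.13% and 6.32% of all genes as far in that direction. The PC3-Epi value became 0.81 with 1 FPKM added to both levels, which is under 2-fold.

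**Figure D2:**
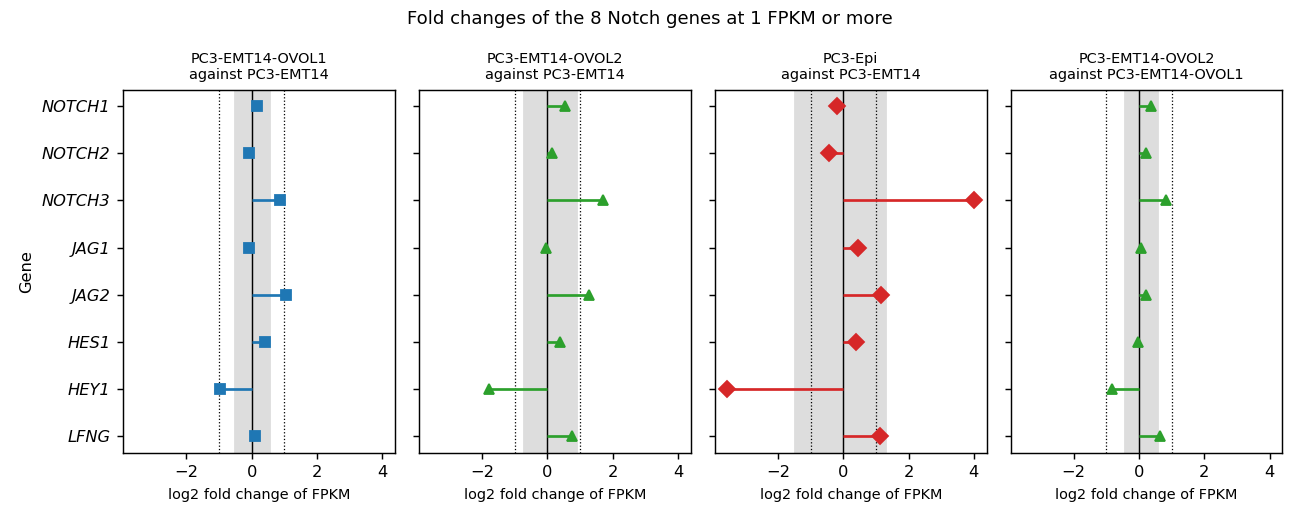
Log2 fold change of FPKM for the 8 Notch genes that reached 1 FPKM, 1 panel a comparison. Symbols are single values without error, the dotted lines mark 2-fold, and the grey band holds the middle of all genes, from the 5th to the 95th percentile (from -0.52 to 0.55 in the OVOL1 line, from -0.72 to 0.91 in the OVOL2 line and from -1.49 to 1.31 in PC3-Epi). NOTCH3 lies right of the band and HEY1 left of it in all 4 panels.

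The target genes differed in direction. HEY1 (XLOC_020985, on the minus strand of chromosome 8), a basic helix-loop-helix repressor, was the most abundant member in PC3-EMT14, with a level above that of 94.5% of all gene entries. It was at 64.3 to 66.3 FPKM in PC3-EMT14, 32.9 to 33.2 in PC3-EMT14-OVOL1, 18.7 in PC3-EMT14-OVOL2 and 5.64 in PC3-Epi. The order was that of NOTCH3 turned round, with each line below the one before it. The log2 fold change was -0.97 in the OVOL1 line, -1.78 in the OVOL2 line and -3.56 in PC3-Epi, and 1.69%, 1.04% and 1.45% of all genes were lower by at least as much. HEY1 levels were high enough that adding 1 FPKM to both values changed these little, to -0.95, -1.73 and -3.34.

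HES1 (XLOC_014735, hg19 chr3:193853934-193856396, plus strand) is a related repressor, and its upstream window held the RBPJ core in 2 places. The HEY1 window was not available for this search. HES1 was at 30.7 to 31.7 FPKM in PC3-EMT14, 40.8 to 41.2 in PC3-EMT14-OVOL1, 40.2 in PC3-EMT14-OVOL2 and 41.6 in PC3-Epi. Its level was thus nearly the same in both transduced lines and PC3-Epi, and lower in PC3-EMT14. The log2 fold change was 0.41, 0.39 and 0.39, always under 2-fold. Differences of this size were common, as 7.74%, 12.5% and 22.9% of all genes were higher by at least as much. In PC3-EMT14 HEY1 exceeded HES1 by a factor of 2.09, while HES1 exceeded HEY1 by a factor of 1.24 in the OVOL1 line, 2.16 in the OVOL2 line and 7.38 in PC3-Epi.

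In the direct comparison of both transduced lines, which asked whether OVOL1 and OVOL2 act differently, 0 of 8 members were past 2-fold higher with OVOL2, where 1.90% of 12188 genes were, and 0 of 8 were past 2-fold lower, where 1.17% of genes were. NOTCH3 and HEY1 came nearest, NOTCH3 being 1.77-fold higher and HEY1 1.76-fold lower with OVOL2. A difference as large was seen in 2.68% of genes for NOTCH3 and 1.46% for HEY1, each in its direction. The values are those of the other tables rescaled: a member's direct log2 fold change equalled the difference of its fold changes over PC3-EMT14 to within 0.000141. LFNG followed at 1.57-fold higher, and JAG1, JAG2, NOTCH2 and HES1 differed by less than 1.17-fold. OVOL2 mRNA in its line was 831 FPKM and OVOL1 mRNA in its line 11.3 FPKM, and the constructs came from different cloning systems, so that the factor, its dose and its vector cannot be told apart here.

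The isoform tables gave 1 isoform entry to NOTCH1, NOTCH3, JAG1, DLL1 and HES1, 2 to NOTCH2, JAG2 and HEY1, and 4 to LFNG. The entries carry no exon structure in these tables, so they are named by their identifiers. The authors' software marked some entries as not tested. Among these were TCONS_00010823 of JAG2 in all 3 comparisons with PC3-EMT14 and TCONS_00034181 of HEY1 in all 4 comparisons. For the OVOL2 line against PC3-EMT14, both JAG2 entries and all 4 LFNG entries were so marked. The share of an entry shifted most for JAG2 in PC3-Epi (14.9 points, against 10.6 for LFNG), and most for LFNG in the OVOL2 line (10.8 points, against 6.17 for JAG2). The JAG2 entry TCONS_00010823 was at 1.47 FPKM in PC3-EMT14 in the table of the OVOL1 line, 2.91 to 2.94 in PC3-EMT14-OVOL1, 4.14 to 4.15 in PC3-EMT14-OVOL2 and 4.75 in PC3-Epi. The other entry, TCONS_00010822, was at 2.58 to 2.66, 5.50 to 5.56, 5.66 and 4.57 FPKM in the same order, so that it was highest in the OVOL2 line and the first entry was highest in PC3-Epi. TCONS_00010823 thus made up 36.1% of JAG2 in PC3-EMT14, 34.6% in the OVOL1 line, 42.3% in the OVOL2 line and 51.0% in PC3-Epi. A shift at least as large as the 14.9 points in PC3-Epi was found in 10.9% of 4605 genes with more than 1 isoform, so the size is not rare in the table.

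For LFNG, 2 of the 4 entries made up nearly all of the level. TCONS_00031545 was at 0.699 to 0.722 FPKM in PC3-EMT14, 0.712 to 0.721 in PC3-EMT14-OVOL1, 1.51 in PC3-EMT14-OVOL2 and 1.98 in PC3-Epi. Its share was 39.3% in PC3-EMT14, 37.1% with OVOL1 and 49.9% in both the OVOL2 line and PC3-Epi. A shift at least as large as the 10.8 points of LFNG in the OVOL2 line was found in 15.4% of 4708 genes. For its 10.6 points in PC3-Epi, the share was 17.7% of 4605 genes. HEY1 kept its main entry in every line: TCONS_00034181 made up 92.8% in PC3-EMT14, 92.4% in the OVOL1 line, 93.4% in the OVOL2 line and 96.6% in PC3-Epi. The minor HEY1 entry, TCONS_00034180, was at 4.60 to 4.74 FPKM in PC3-EMT14, 2.49 to 2.52 in the OVOL1 line, 1.24 in the OVOL2 line and 0.191 in PC3-Epi, so both isoforms were lower together.

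**Figure D3:**
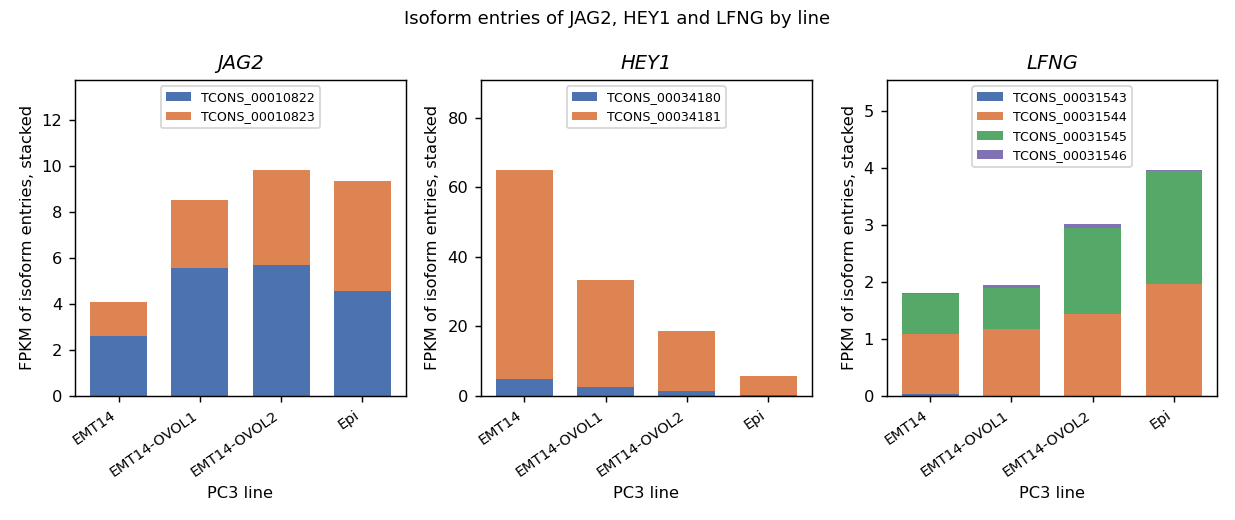
Stacked FPKM of the isoform entries of JAG2, HEY1 and LFNG in the 4 lines (axes start at 0 and differ between panels; the prefix PC3 is left off the line names; a line with several tables is drawn from the first). The upper JAG2 segment, TCONS_00010823, grows from 36.1% of the bar in PC3-EMT14 to 51.0% in PC3-Epi, and both HEY1 segments shrink.

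Of 49 other genes of the pathway that were listed by role, 48 had a single entry and 39 reached 1 FPKM in each comparison. NOTCH4 was left out, because it had 7 entries, 6 of them on alternative haplotypes of chromosome 6. With OVOL1, 3 of the 39 were past 2-fold higher (7.69%, against the 2.43% of all genes) and 0 lower (against 1.54%). With OVOL2, 4 were higher (10.3%, against 4.42%) and 0 lower (against 2.93%). In PC3-Epi, 3 were higher (7.69%, against 7.37%) and 3 lower (7.69%, against 8.34%), so the shares there were near those of all genes. Between the transduced lines 0 of the 39 were past 2-fold higher with OVOL2, against 1.90% of all genes, and 0 lower, against 1.17%. With 39 genes, such counts of 0 are near the background.

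The genes that were higher were found among targets and ubiquitin ligases. HES4, a HES-family repressor, was at 6.97 to 7.20 FPKM in PC3-EMT14, 16.4 to 16.6 in the OVOL1 line, 26.5 in the OVOL2 line and 19.9 in PC3-Epi. NRARP, which is induced by Notch and dampens its signal, was at 2.19 to 2.27 FPKM in PC3-EMT14, 4.92 to 4.97 in the OVOL1 line, 5.74 in the OVOL2 line and 6.32 in PC3-Epi. Both were past 2-fold higher in all 3 lines, opposite in direction to HEY1. With 1 FPKM added to both values, NRARP in the OVOL1 line had a log2 fold change of 0.89 and was no longer past 2-fold, while the other 5 of these calls were kept. The others of that role at 1 FPKM, HES2 and HES6, stayed under 2-fold, and HES5, HES7, HEY2 and HEYL did not reach 1 FPKM, so HEY1 was the only HEY gene at that level.

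DTX4, a Deltex ubiquitin ligase, was at 1.39 to 1.44 FPKM in PC3-EMT14, 2.38 to 2.40 in the OVOL1 line, 3.20 in the OVOL2 line and 5.82 in PC3-Epi. NEURL1, a ligase that acts on Notch ligands, was at 1.33 to 1.37 FPKM in PC3-EMT14, 2.73 to 2.76 with OVOL1 and 2.79 with OVOL2, but at 0.900 in PC3-Epi. It was thus just past 2-fold in both transduced lines, with log2 fold changes of 1.04 and 1.07, and lower than PC3-EMT14 in the epithelial line. With 0.1 FPKM added to both values NEURL1 in the OVOL1 line was at 0.99, and with 1 FPKM added the lines were at 0.68 and 0.70, all under 2-fold. DTX4 in the OVOL2 line likewise went from a log2 fold change of 1.20 to 0.81 with 1 FPKM added. The genes past 2-fold lower were so in PC3-Epi: DNER, a neuronal Notch ligand, at 2.40 FPKM in PC3-EMT14 and 0.337 in PC3-Epi, KAT2B, an acetyltransferase of the nuclear complex, at 6.01 and 1.97, and DTX3, another Deltex, at 15.8 and 6.04. RBPJ itself was at 20.4 to 21.0 FPKM in PC3-EMT14, 19.9 to 20.2 in the OVOL1 line, 19.8 in the OVOL2 line and 16.6 in PC3-Epi. None of the 8 proteases or 3 corepressors at 1 FPKM was past 2-fold in any comparison, where 1.17% to 8.34% of all genes were in a given direction, so that counts of 0 in groups this small are near the background.

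**Figure D4:**
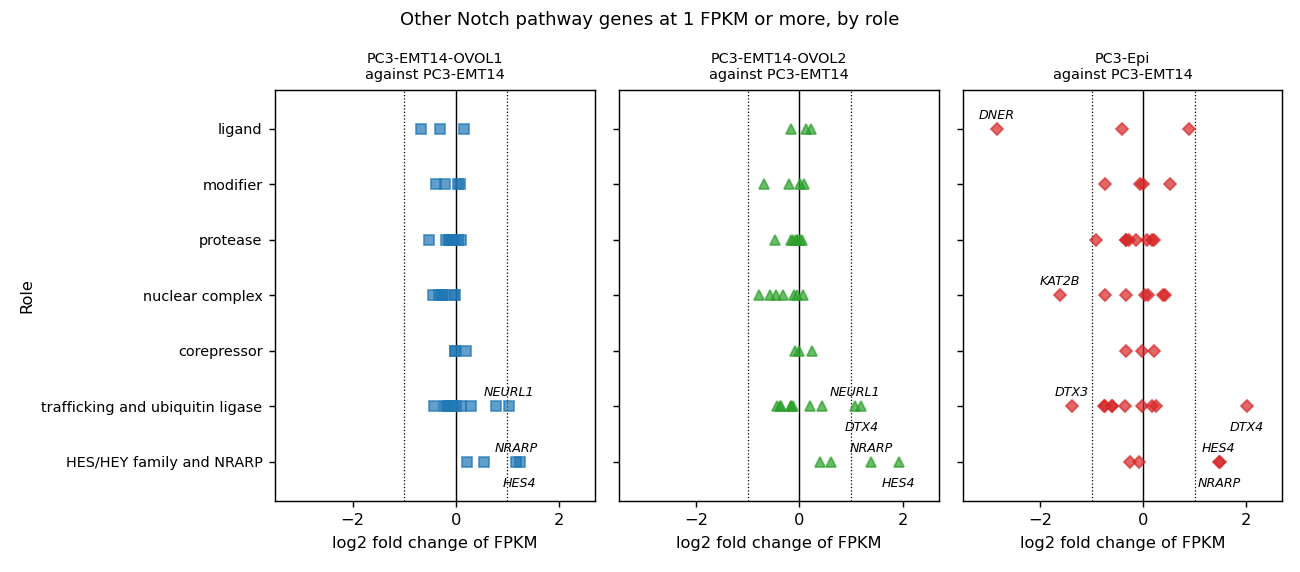
Log2 fold change of FPKM over PC3-EMT14 for the 39 other pathway genes that reached 1 FPKM, by role, 1 symbol a gene, single values without error. Dotted lines mark 2-fold and genes past it are named. Most symbols lie between the lines, and HES4 and NRARP lie to the right of them in every panel.

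By the distance between their 3 log2 fold changes over PC3-EMT14, members past 2-fold were compared with the 11988 genes at 1 FPKM in all 3 comparisons. The genes nearest to NOTCH3 were KLK6, FOXQ1 and RBM47, at distances of 0.45, 0.48 and 0.62. KLK6 had log2 fold changes of 0.73, 1.69 and 4.44. Nearest to HEY1 were TAGLN3, VLDLR and FAM43A (0.35, 0.39 and 0.44), of which TAGLN3 had values of -1.22, -2.02 and -3.51. JAG2 was closest to MAL2, ELF3 and S100A5 (0.21, 0.22 and 0.26), and LFNG to TPM1, FAM84A and SNORA71A (0.06, 0.12 and 0.12). Profiles of 3 values that share a reference are short, and the distances describe likeness in these tables only.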

How the data were processed

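RNA-seq was done on 10 samples of PC3-derived lines, grouped by the sample labels. Alignment by the authors used TopHat and the UCSC annotation of hg19, and pairs of groups were compared with Cuffdiff. They deposited 8 tables, 4 of genes and 4 of isoforms (1 of each per comparison), with FPKM values that pool the samples of a group into 1 value. Each table was normalized on its own; PC3-EMT14 differed between its gene tables by a nearly constant factor (medians 0.990 to 1.03). Depth per sample is unknown, so no interval, SD or test was computed. The tables also hold the authors' fold changes, test statistics, p-values, q-values and calls, which were not used.

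Log2 ratios of FPKM were computed with no pseudocount in Python 3.11.15 with numpy 2.4.6 and pandas 2.3.3, counted past 2-fold where the higher value was at least 1 FPKM, and plotted with matplotlib 3.10.9. Counts over all genes at that level gave the background. Isoform shares are shares of the summed isoform FPKM. Loci are hg19 coordinates of the tables, made 1-based, and strands from GENCODE. The genes named are the 9 members, pathway genes past 2-fold in any comparison, the line markers, and the 3 nearest profiles of each member at 1 FPKM in all 3 comparisons with PC3-EMT14 and past 2-fold in 1 or more; RBPJ, NOTCH2NL and the other HES and HEY genes were added after their values were seen. Members and lists were chosen with earlier results of these data known. The alternatives were pseudocounts of 0.1 and 1 FPKM, no floor or 5 FPKM, thresholds of 1.5-fold and 4-fold, median centring, genes with test status OK only, isoform sums in place of gene values, and isoform shares from the table of both OVOL lines.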

Additional observations from a re-analysis of the deposited data

How the results depend on the processing

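No value has a replicate error, and depth is unknown. No paired analysis was possible because the tables pool the samples of a line, and leaving out a replicate was not run for the same reason. With 1 FPKM added to both values, fewer members were past 2-fold higher. Of 8 members there were 0 in the OVOL1 line, 1 in the OVOL2 line and 1 in PC3-Epi. Of all genes, 1.66%, 3.08% and 5.26% were so in these lines. Other pathway genes past 2-fold higher numbered 1 of 39 with OVOL1 (2.56%) and 2 of 39 with OVOL2 (5.13%). With a floor of 5 FPKM, 1 of 5 members was past 2-fold higher with OVOL2, against 3.15% of all genes. The pathway genes higher numbered 1 of 28 with OVOL1 (3.57%, against 1.67% of all genes) and 2 of 29 with OVOL2 (6.90%, against 3.15%). Since fewer members were counted, their median log2 fold change turned to -0.077 with OVOL1. That median fell from 0.47 to 0.14 with OVOL2 and from 0.22 to 0.046 in the OVOL2 line over the OVOL1 line, and stayed at 0.42 in PC3-Epi. Without a floor, 3 pathway genes, all of them below 1 FPKM, were past 2-fold higher in the OVOL2 line over the OVOL1 line. No share over all genes was computed for that setting.

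At 1.5-fold, 2 of 8 members were higher and 1 lower with OVOL1 (4.67% and 4.12% of all genes), and likewise 2 higher and 1 lower in the OVOL2 line over the OVOL1 line (4.74% and 2.72% of all genes). Of the 39 pathway genes at 1.5-fold, 1 was lower in the OVOL1 line (2.56%, against 4.12% of all genes), 2 in the OVOL2 line (5.13%, against 6.92%) and 10 in PC3-Epi (25.6%, against 16.3%), and 2 were higher in the OVOL2 line over the OVOL1 line (5.13%, against 4.74%). At 4-fold, 0 members were higher with OVOL1, 0 higher and 0 lower with OVOL2, and 1 higher in PC3-Epi; the pathway genes higher numbered 0 in the OVOL1 line, 0 in the OVOL2 line and 1 in PC3-Epi, where 1 was lower. Of all genes, 1.21%, 1.89% and 3.17% were past 4-fold higher and 0.533%, 0.837% and 3.29% past 4-fold lower in these lines. HEY1 was lower in PC3-Epi at each of these thresholds. Of the 20 counts and medians, none changed by over 1.5 times or turned its direction under a pseudocount of 0.1 FPKM, centring, or restriction to genes with test status OK, nor did the 12 that concern members under isoform sums. The log2 fold change of DLL1 in PC3-Epi was 2.56 with no pseudocount, 1.08 with 0.1 FPKM added and 0.19 with 1 FPKM added.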
